A study of Homo sapiens with 6 samples.

Results

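The genes described here are YAP1, WWTR1, TEAD1, TEAD3, LATS1, LATS2, CYR61, CTGF, AMOTL2 and AJUBA, which are the coactivators, transcription factors, kinases, binding proteins and targets of the Hippo pathway. They were taken by symbol from the table of raw gene counts, where they are 10 of 27470 genes. All 10 had enough reads to be tested among 12233 genes. Their mRNA was compared between 22Rv1-ABHD5 cells grown without Dox (Control, 3 libraries) and with Dox (OE, 3 libraries) for 48 h. 22Rv1 is a human castration-resistant prostate cancer line. The cells of both conditions carry an ABHD5 transgene that lentivirus delivered and Dox switches on, and were selected with G418, so the conditions differ in Dox and in what it induces. Parent cells with Dox were not analysed here, and Dox and ABHD5 cannot be told apart. The paper reports, without showing the data, a negligible effect of Dox on growth of the parent lines, which concerns growth and not RNA. The labels number the libraries of each condition but do not say that they came from separate cultures, so the p-values measure the spread between these libraries, which may be technical.

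In the Hippo pathway, the kinases LATS1 and LATS2 phosphorylate the coactivators YAP (YAP1) and TAZ (WWTR1), which then stay in the cytoplasm or are degraded. When LATS activity is low, YAP and TAZ enter the nucleus and bind TEAD factors on DNA, and genes such as CYR61 and CTGF are transcribed. Cell density, attachment, actin tension and energy state act on this pathway, and it is known for its role in the growth of epithelial tissues and tumors. Much of its control lies in phosphorylation, which mRNA does not show.

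QuantSeq reads come from near the end of each transcript. The libraries held 3394672 to 5988151 reads on genes without Dox and 3460471 to 7271771 with Dox. Levels are given as CPM, the counts of a gene for a fixed number of reads, scaled by TMM, a normalization that sets the typical gene to no change. A count of 0 allows up to 3 counts, which were worth 0.394 to 0.930 CPM by library, for counting error only. ABHD5 was at 61.4 ± 3.0 CPM (SD, n = 3) without Dox and 116.1 ± 21.3 with Dox (log2 fold change 0.91). Every one of 8 luminal prostate markers was tested, with a summed level of 1433 to 1505 CPM without Dox and 894 to 987 CPM with Dox. The edgeR test called 4 of them lower and 0 higher (0 higher also at an unadjusted p under 0.05, and 0 by DESeq2 and by limma). Of 3 basal markers, KRT5 and KRT14 were at 0 counts and the summed level was at most 0.261 CPM, while 6 endothelial and immune markers summed to at most 0.930 CPM, with 4 of them at 0. The 6 fibroblast and smooth muscle markers summed to 2.17 to 4.44 CPM without Dox and 4.73 to 9.06 CPM with Dox, with PDGFRB at 0 and COL1A1 as the 1 gene tested (called higher by edgeR, log2 fold change 1.22, but not by DESeq2 or limma). The part of these shifts in the results was not tested. A gene was called at an adjusted p under 0.05 in edgeR's quasi-likelihood test, corrected over all genes tested, which called 25.5% of them, 11.9% higher and 13.7% lower with Dox. Scaling by library totals alone raised the share of calls that were higher from 46.4% to 65.7%. With that scaling the median change over all genes was 0.14 on the log2 scale, against 0.016 with TMM.

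The upstream sequence of 2 genes that changed, CTGF and AJUBA, is shown because TEAD factors bind the letters GGAATG, or CATTCC on the other strand, in the promoters of their targets. Each line holds the 250 bases before the transcription start as RefSeq gives it on GRCh38.p14, read on the gene's own strand (minus for both), with GGAATG or CATTCC in capitals. The CTGF window is chr6:131951373-131951622 and the AJUBA window is chr14:22982552-22982801.
CTGF: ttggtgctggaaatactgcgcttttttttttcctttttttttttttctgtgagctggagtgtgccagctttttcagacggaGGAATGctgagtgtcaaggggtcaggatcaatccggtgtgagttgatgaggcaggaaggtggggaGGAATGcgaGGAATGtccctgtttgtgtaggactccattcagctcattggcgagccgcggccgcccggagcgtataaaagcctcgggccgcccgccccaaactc
AJUBA: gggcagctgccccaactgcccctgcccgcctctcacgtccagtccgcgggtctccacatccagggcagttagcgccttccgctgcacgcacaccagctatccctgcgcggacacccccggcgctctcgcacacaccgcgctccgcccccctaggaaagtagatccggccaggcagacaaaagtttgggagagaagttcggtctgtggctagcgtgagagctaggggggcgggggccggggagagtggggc
The CTGF window held these letters 3 times, starting 169, 104 and 95 bases before the start, and the AJUBA window did not hold them. RefSeq's windows matched 8 of the 10 genes and gave 12 starts, since several genes have more than 1; CYR61 and TEAD1 had no entry. Of the 12 windows, 4 held the letters, namely those of YAP1 and CTGF and 1 of 2 each for AMOTL2 and AJUBA. The AMOTL2 and AJUBA windows with the letters lie inside those genes and overlap their exons. Which starts these cells use was not tested. Over all 35116 windows of this length the share was 11.9%, and over 18 windows of 16 of the 22 YAP/TAZ target genes listed further on it was 8 windows. A match is a description of the letters and does not show that a factor binds there.

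Of the 10 genes, 2 rose with Dox, CYR61 and AJUBA, and 1 fell, CTGF, while 7 were not called. CYR61 and CTGF, both widely used readouts of YAP and TEAD activity, went in opposite directions: CYR61 rose 4.0-fold and CTGF fell to 0.575 of its level. The median log2 fold change of the 10 was 0.29, against 0.016 over all genes tested. The counts called, 2 higher and 1 lower of 10, stand beside 11.9% and 13.7% of all genes tested, so the share called was near the background. The conditions did not overlap for 4 of the 10, all higher with Dox, against 39.5% of all genes tested (19.0% higher and 20.5% lower). In RNA of whole cultures, fewer cells that express a gene and less RNA per cell cannot be told apart.

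**Figure D1:**
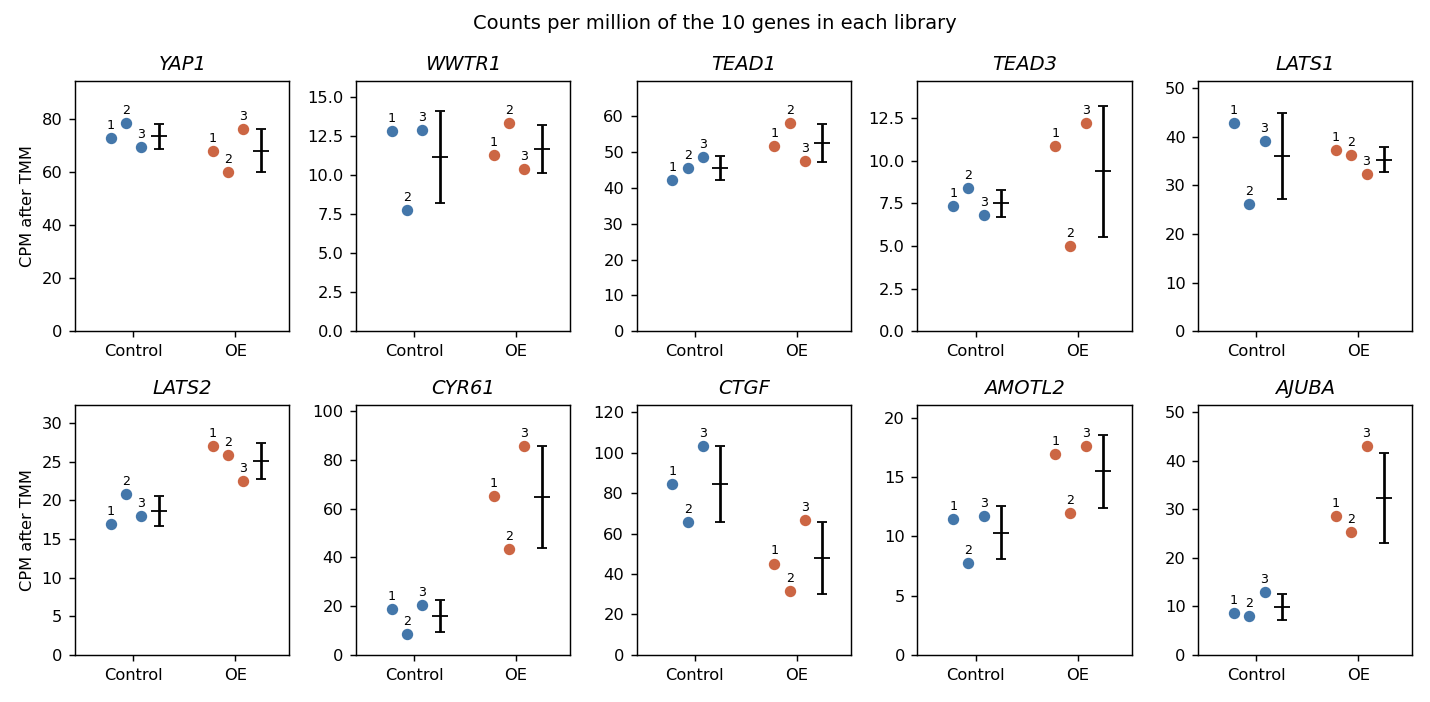
CPM after TMM of each of the 10 genes (y axis, from 0, a separate scale per gene) in the 3 Control libraries (blue) and the 3 OE libraries (orange), with the replicate number above each point and the mean ± SD as a black bar. CYR61 and AJUBA sit higher in all 3 OE libraries, CTGF overlaps in 1 pair of libraries, and YAP1, WWTR1, TEAD1, TEAD3 and LATS1 overlap.

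CYR61 (now CCN1), on chromosome 1 of hg38 from 85580761 to 85584589, encodes a secreted matrix protein that binds integrins. It was at 18.8, 8.37 and 20.4 CPM in Control replicates 1, 2 and 3, and at 65.2, 43.4 and 85.5 CPM in OE replicates 1, 2 and 3. The lowest OE library was above the highest Control library. In edgeR its log2 fold change of 2.0 had a standard error of 0.26 and an adjusted p of 2.225e-05, which is 4.0-fold with a 95% interval of 2.74 to 5.85. It stayed called when any 1 library was dropped, between 1.72 and 2.24.

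CTGF (now CCN2), on chromosome 6 from 131948176 to 131951372, encodes another secreted matrix protein of the same family. It was at 84.6, 65.7 and 103.2 CPM in Control replicates 1, 2 and 3, and at 45.2, 31.7 and 66.9 CPM in OE replicates 1, 2 and 3. The conditions overlapped, since OE replicate 3 lay just above Control replicate 2. In edgeR its log2 fold change of -0.80 had a standard error of 0.21 and an adjusted p of 0.00993, or 0.575 of the Control level with a 95% interval of 0.422 to 0.783. Without Control replicate 3 it was -0.63 (adjusted p = 0.0531, edgeR) and without OE replicate 1 it was -0.75 (adjusted p = 0.0524, edgeR), and in both cases the call was lost. Without OE replicate 3 the log2 fold change was -1.14. The last exon of CTGF overlaps LINC01013, a gene on the opposite strand in GENCODE 44, which had 1 count over the 6 libraries; how reads on both genes were counted is not stated.

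Within each library, the ratio of CYR61 counts to CTGF counts showed the contrast between them without any scaling between libraries. The ratio was 0.222, 0.127 and 0.198 in Control replicates 1, 2 and 3, and 1.44, 1.37 and 1.28 in OE replicates 1, 2 and 3. It was 7.67-fold higher with Dox, and the conditions did not overlap. The exact permutation test over the libraries (two-sided) gave p = 0.1, the smallest that 3 against 3 allow, and 0.4 after adjustment over the 4 gene pairs compared. The LATS2 to LATS1 ratio (exact permutation p = 0.4), the YAP1 to WWTR1 ratio (exact permutation p = 0.7) and the TEAD3 to TEAD1 ratio (exact permutation p = 1) were the other 3 pairs.

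AMOTL2, on chromosome 3 from 134355347 to 134375479, is both a target of YAP and an angiomotin that holds YAP at cell junctions. It was at 11.5, 7.75 and 11.7 CPM in Control replicates 1, 2 and 3, and at 17.0, 12 and 17.6 CPM in OE replicates 1, 2 and 3. The conditions did not overlap, but OE replicate 2 lay only just above Control replicate 3. In edgeR its log2 fold change of 0.59 had a standard error of 0.24 and an adjusted p of 0.0778 and was not called, although the 95% interval, 0.090 to 1.08, lay above 0. It was called without OE replicate 2 (0.72, adjusted p = 0.0322, edgeR), with library totals alone (0.71, adjusted p = 0.0343, edgeR), and with the replicate number as a block (0.59, adjusted p = 0.0486, edgeR).

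AJUBA, on chromosome 14 from 22971177 to 22982551, encodes a LIM protein that binds LATS kinases and holds them back at junctions under tension. It was at 8.62, 8.06 and 12.9 CPM in Control replicates 1, 2 and 3, and at 28.7, 25.3 and 43.0 CPM in OE replicates 1, 2 and 3. All OE libraries were well above all Control libraries. In edgeR its log2 fold change of 1.69 had a standard error of 0.24 and an adjusted p of 4.959e-05, which is 3.23-fold with a 95% interval of 2.28 to 4.58. It stayed called when any 1 library was dropped, between 1.41 and 1.97. GENCODE 44 has a protein-coding gene on the same strand that overlaps the last exon of AJUBA, and reads from it could not be separated. The last exon of AMOTL2 is likewise overlapped by a pseudogene on the same strand. That of YAP1 is overlapped by a noncoding RNA gene on the opposite strand.

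LATS1 and LATS2, the kinases that phosphorylate YAP and TAZ, were not called. LATS1, on chromosome 6 from 149658153 to 149718105, was at 42.8, 26.1 and 39.1 CPM in Control replicates 1, 2 and 3, and at 37.2, 36.2 and 32.3 CPM in OE replicates 1, 2 and 3. The OE libraries all lay within the range of the Control libraries, which Control replicate 2 widened. Its log2 fold change was -0.048 (95% interval -0.42 to 0.33, adjusted p = 0.876, edgeR), with a sign that turned with upper-quartile normalization (0.0075) and with library totals alone (0.073). LATS2, on chromosome 13 from 20973036 to 21061586, is itself a target of YAP that acts back on it. It was at 17.0, 20.8 and 18.0 CPM in Control replicates 1, 2 and 3, and at 27.0, 25.9 and 22.5 CPM in OE replicates 1, 2 and 3. The conditions did not overlap. Its log2 fold change was 0.43 (standard error 0.18, 95% interval 0.052 to 0.81), which was not called (adjusted p = 0.0893, edgeR) except with library totals alone (0.55, adjusted p = 0.0293, edgeR). LATS2 and AMOTL2 were among the 4 of 10 genes higher in every OE library than in any Control library, which held for 19.0% of all genes tested.

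The coactivators and the TEAD factors were not called. YAP1, on chromosome 11 from 102110447 to 102233424, was at 72.9, 78.8 and 69.5 CPM in Control replicates 1, 2 and 3, and at 68.1, 60.1 and 76.6 CPM in OE replicates 1, 2 and 3. The conditions overlapped, and the log2 fold change was -0.10 (95% interval -0.39 to 0.19, adjusted p = 0.635, edgeR), or 0.022 with library totals alone. The interval leaves room for a fold between 0.765 and 1.14. WWTR1, the gene of TAZ on chromosome 3 from 149517235 to 149736714, was at 12.8, 7.75 and 12.9 CPM in Control replicates 1, 2 and 3, and at 11.3, 13.4 and 10.4 CPM in OE replicates 1, 2 and 3. Control replicate 2 was the lowest library and the OE libraries reached both above and below the other 2. Its log2 fold change was 0.025 (95% interval -0.49 to 0.54, adjusted p = 0.954, edgeR), and it was negative without Control replicate 2 or without OE replicate 2.

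TEAD1, on chromosome 11 from 12674421 to 12944737, was at 42.1, 45.6 and 48.7 CPM in Control replicates 1, 2 and 3, and at 51.8, 58.2 and 47.5 CPM in OE replicates 1, 2 and 3. OE replicate 3 fell within the Control range. The log2 fold change was 0.20 (95% interval -0.11 to 0.50, adjusted p = 0.343, edgeR). TEAD3, on chromosome 6 from 35473597 to 35497079, was at 7.31, 8.37 and 6.81 CPM in Control replicates 1, 2 and 3, and at 10.9, 5.01 and 12.2 CPM in OE replicates 1, 2 and 3. OE replicate 2 was below every Control library and the other OE libraries were above, so the log2 fold change of 0.38 had a wide 95% interval, -0.249 to 1.015 (adjusted p = 0.382, edgeR). It moved to 0.64 without OE replicate 2 and to 0.13 without OE replicate 3, and was not called in either case.

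**Figure D2:**
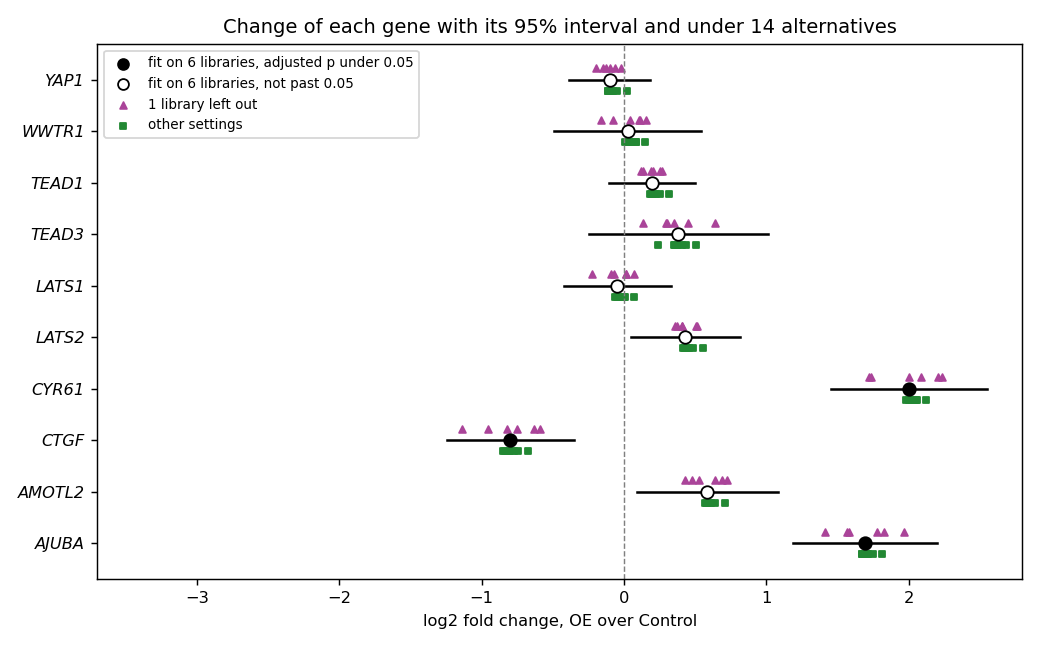
Log2 fold change of each gene, OE over Control (x axis, 0 is no change), with its 95% interval as a line and filled circles for genes with an adjusted p under 0.05. Triangles are fits with 1 library left out and squares are the other alternatives; CYR61 (2.0) and AJUBA (1.69) stay far to the right of 0 and CTGF (-0.80) to the left.

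The 4 genes CYR61, CTGF, AMOTL2 and AJUBA shared a pattern between libraries that was noticed only after their values were seen. In both conditions each was lowest in replicate 2 and highest in replicate 3. The other 6 genes did not show it in both conditions, although YAP1 and TEAD3 had this order in OE. The pattern held in both conditions for 6.57% of all genes tested. Depth moved with it, since replicate 2 had the fewest reads and replicate 3 the most in both conditions, and its part was not tested. Within a condition CTGF thus moved in the same direction as CYR61, while between conditions it moved the other way.

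**Figure D3:**
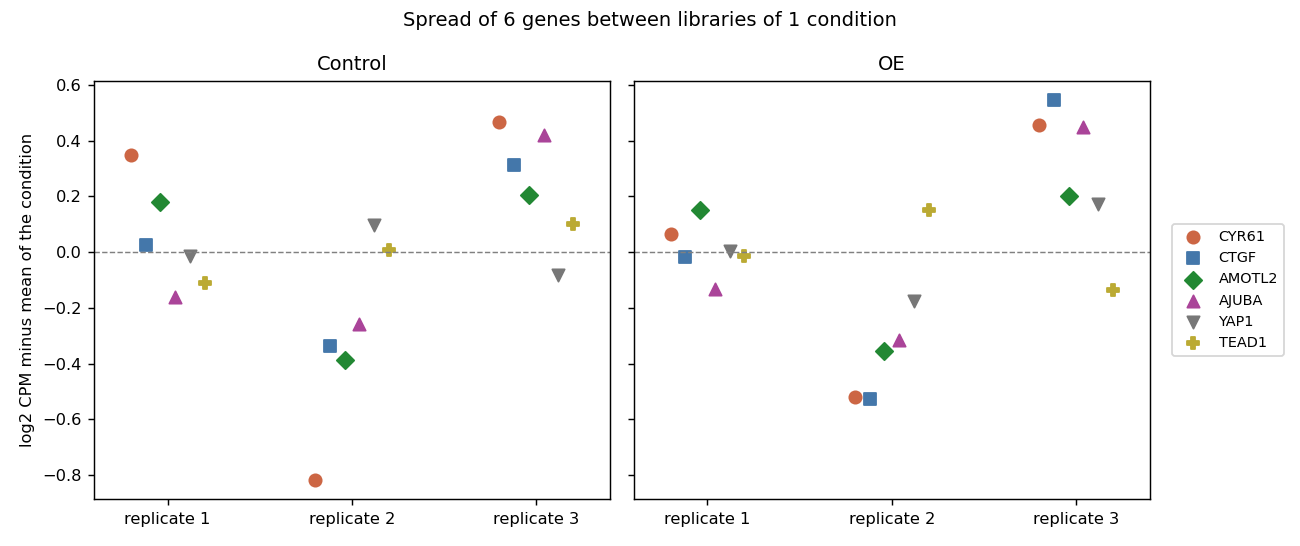
Log2 CPM of 6 genes in each library minus the gene's mean over the 3 libraries of that condition (y axis), for Control (left) and OE (right), with symbols set side by side for legibility. CYR61, CTGF, AMOTL2 and AJUBA lie below 0 in replicate 2 and above 0 in replicate 3 of both conditions. YAP1 does so in OE but not in Control, and TEAD1 does so in neither.

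A wider list of 22 YAP/TAZ targets was written from general knowledge of the pathway, CYR61, CTGF, AMOTL2 and LATS2 included, and 16 of them were tested. Of these, 8 rose, CYR61 among them, 4 fell, CTGF among them, and 4 were not called, against 25.5% called over all genes tested. Their median log2 fold change was 0.50. Both directions were also seen among the targets other than CYR61 and CTGF. This list, like the members and the other lists, was chosen with earlier results of these data known, so its share called is only a description. ANKRD1, a nuclear ankyrin repeat protein, rose from 2.34 ± 0.929 to 15.3 ± 5.21 CPM (n = 3, SD), or 2.69 on the log2 scale (adjusted p = 2.35e-05, edgeR). Its counts were low, at 5, 10 and 15 in Control replicates 1, 2 and 3, and those of TGFB2 were 12, 7 and 22. The filter of at least 10 counts in every library left both genes out. MYOF, a membrane repair protein, rose from 6.39 ± 1.24 to 21.2 ± 3.6 CPM (log2 fold change 1.70). GADD45A, a stress protein that p53 also drives, rose from 32.6 ± 1.89 to 79.8 ± 9.25 CPM (log2 fold change 1.30). The others that rose were TGFB2 (1.39), PTPN14 (0.78), CRIM1 (0.57) and DOCK5 (0.37); CRIM1 lost its call without Control replicate 1 (adjusted p = 0.0503, edgeR), Control replicate 2 (0.0697) or OE replicate 1 (0.0583), and DOCK5 without any 1 library other than OE replicate 3 (adjusted p = 0.0716 to 0.166, edgeR) and with no filter on low counts (adjusted p = 0.0620, edgeR). NUAK2, a kinase related to AMPK, fell from 10.2 ± 0.836 to 3.97 ± 0.544 CPM (log2 fold change -1.32, adjusted p = 0.00175, edgeR). IGFBP3, a binding protein of insulin-like growth factors, fell from 13.7 ± 1.0 to 6.58 ± 0.891 CPM (log2 fold change -1.03). F3, the tissue factor gene, fell from 14.5 ± 3.82 to 7.11 ± 2.30 CPM (log2 fold change -1.0), and lost its call without Control replicate 1 (adjusted p = 0.0626, edgeR).

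CYR61 and CTGF are 2 of the 6 genes of the CCN family, and NOV was the only other one tested. NOV was at 9.38 ± 3.55 CPM without Dox and 10.4 ± 0.932 CPM with Dox (log2 fold change 0.19, adjusted p = 0.659, edgeR, or -0.054 without Control replicate 3). CYR61 and CTGF also belong to the genes that respond to serum within minutes to hours, so 13 other immediate-early genes were set beside them. Of the 10 tested, 2 rose and 1 fell, a share near the 25.5% of all genes tested, with a median log2 fold change of 0.023. EGR1, a zinc finger factor, rose from 35.2 ± 5.20 to 65.1 ± 14 CPM (log2 fold change 0.89, adjusted p = 0.00103, edgeR). JUNB had a log2 fold change of 0.72 and FOS of -1.23, and both lost their calls without each of 4 libraries: JUNB without Control replicate 2 or 3 or OE replicate 1 or 3 (adjusted p = 0.0528 to 0.222, edgeR), and FOS without Control replicate 1 or 3 or OE replicate 1 or 3 (adjusted p = 0.0543 to 0.147, edgeR). The log2 fold change of JUNB was 0.36 without OE replicate 3.

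Upstream of YAP, 23 of 23 genes of the Hippo kinase module and its regulators were tested, and 2 rose, 3 fell and 18 were not called, with a median log2 fold change of 0.18. The share called was near the 25.5% of all genes. WWC1 (KIBRA), a scaffold that activates LATS, fell from 167 ± 12.8 to 111 ± 14.1 CPM (log2 fold change -0.60, adjusted p = 0.00262, edgeR). TAOK3, a kinase of the TAO family, fell from 135 ± 3.40 to 86.8 ± 15.5 CPM (log2 fold change -0.64). MAP4K5, a kinase that can phosphorylate LATS, rose from 51.4 ± 4.73 to 73.7 ± 8.32 CPM (log2 fold change 0.52) and lost its call without Control replicate 2 (0.44, adjusted p = 0.0603, edgeR). RASSF1, a scaffold that binds the kinases STK3 and STK4, had a log2 fold change of -0.67 and kept its call only without Control replicate 3 or OE replicate 3 among the fits with 1 library left out (adjusted p = 0.0518 to 0.112 in the other 4, edgeR). It also lost its call with library totals alone (-0.54, adjusted p = 0.0603, edgeR). MOB1A, the activator of LATS, had 0.47 and kept it only without Control replicate 3 or OE replicate 2 (adjusted p = 0.117 to 0.240 in the other 4, edgeR). Its log2 fold change was 0.27 without OE replicate 3, and it was not called by DESeq2 or by limma.

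Among 9 junction and LIM proteins that bind YAP or LATS, AJUBA and AMOTL2 included, 8 were tested, of which 3 rose, 1 fell and 4 were not called, beside 11.9% higher and 13.7% lower over all genes tested, with a median log2 fold change of 0.59. AMOT, a paralog of AMOTL2, was at 40.2, 33.5 and 37.0 CPM in Control replicates 1, 2 and 3, and at 23.1, 22.0 and 21.5 CPM in OE replicates 1, 2 and 3. It fell with no overlap between conditions (log2 fold change -0.74, adjusted p = 0.00239, edgeR). AMOTL1 was at 2.47 ± 0.580 and 3.65 ± 1.28 CPM and was not called (log2 fold change 0.59, adjusted p = 0.310, edgeR). The difference in change between AMOT and AMOTL2 was not tested.

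The other LIM proteins next to AJUBA were LIMD1, WTIP, TRIP6 and ZYX. ZYX, a focal adhesion protein, rose from 34.3 ± 0.975 to 51.5 ± 9.91 CPM (log2 fold change 0.59, adjusted p = 0.0117, edgeR) and lost its call without Control replicate 1 (0.56, adjusted p = 0.0547, edgeR) or OE replicate 3 (0.42, adjusted p = 0.0697, edgeR). LIMD1 was at 12.8, 16.1 and 18.2 CPM in Control replicates 1, 2 and 3 and at 22.6, 21.1 and 22.6 CPM in OE replicates 1, 2 and 3, without overlap but not called (log2 fold change 0.49, adjusted p = 0.0726, edgeR). TRIP6 was at 7.81 ± 1.13 CPM without Dox and 5.96 ± 2.93 CPM with Dox and was not called (log2 fold change -0.42, adjusted p = 0.393, edgeR). WTIP had too few reads to be tested, with 2, 1 and 10 counts in Control replicates 1, 2 and 3 and 13, 7 and 33 in OE replicates 1, 2 and 3. PTPN14, a phosphatase that binds YAP and is also on the target list, rose from 19.0 ± 0.938 to 32.8 ± 7.21 CPM (log2 fold change 0.78, adjusted p = 0.00496, edgeR).

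**Figure D4:**
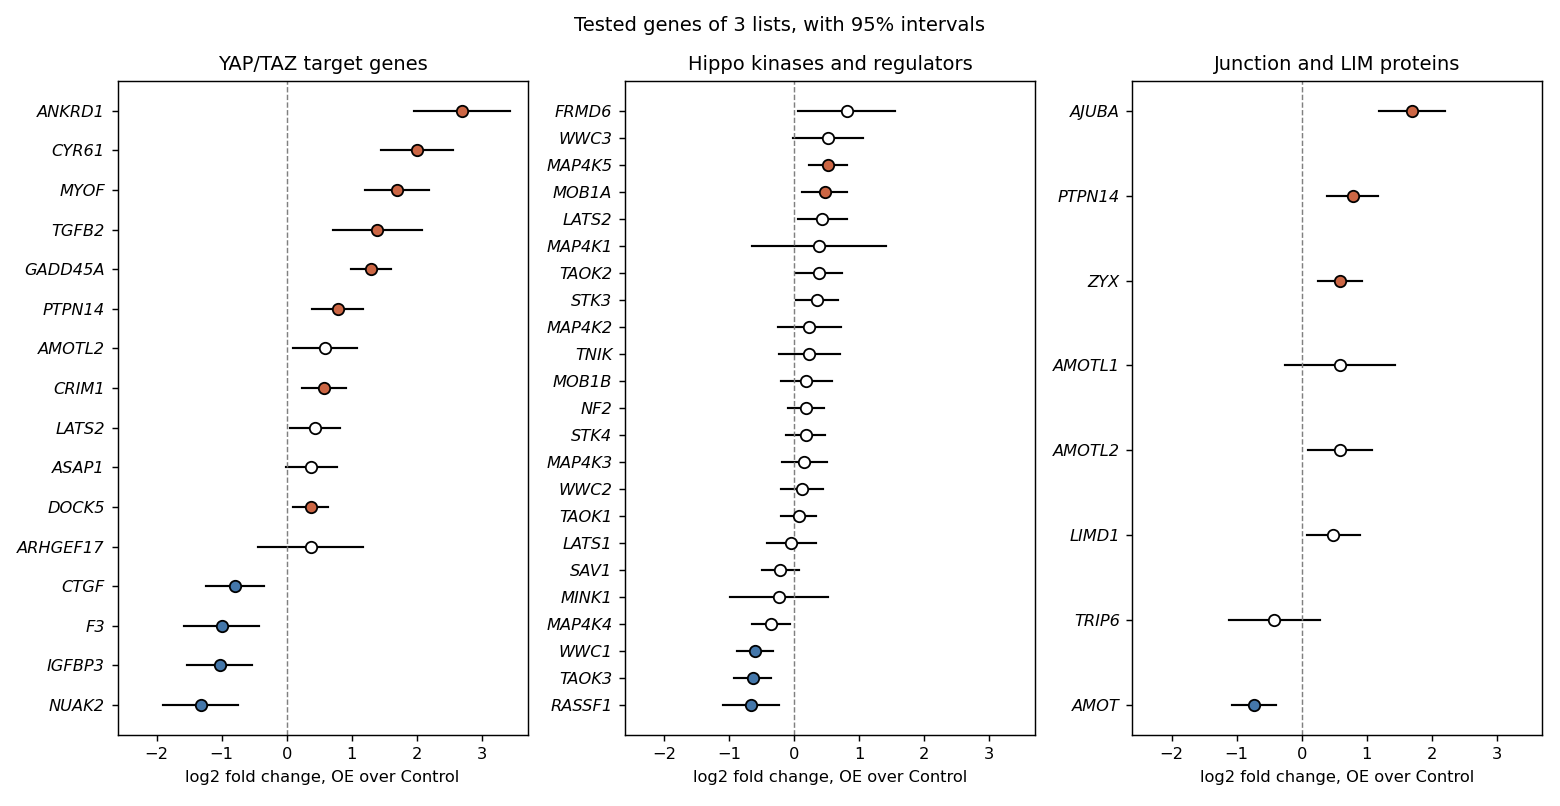
Log2 fold change, OE over Control (x axis), with 95% intervals for the tested genes of the YAP/TAZ targets (16), the Hippo kinases and regulators (23) and the junction and LIM proteins (8). Orange is called higher, blue called lower and white not called; the targets reach from -1.32 (NUAK2) to 2.69 (ANKRD1), whereas the Hippo kinases and regulators stay between -0.67 (RASSF1) and 0.80 (FRMD6).

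Of the 10 YAP, TAZ, TEAD and VGLL factors, 7 were tested and edgeR called 0, beside 25.5% of all genes tested. At an unadjusted p under 0.05 there was 1, TEAD2, and DESeq2 and limma also called 0. TEAD2 was at 96.4, 92.7 and 84.8 CPM in Control replicates 1, 2 and 3, and at 76.3, 76.8 and 59.2 CPM in OE replicates 1, 2 and 3. The conditions did not overlap, and the log2 fold change was -0.37 (adjusted p = 0.0570, edgeR), which was called without OE replicate 2 (-0.44, adjusted p = 0.0364, edgeR). TEAD4 was at 12.6 ± 3.04 and 14.3 ± 4.54 CPM (log2 fold change 0.25, adjusted p = 0.533, edgeR). VGLL1 and VGLL2, cofactors that compete for TEAD factors, had 0 counts in every library, and VGLL3 had too few reads to be tested. VGLL4, of the same family, was at 16.8 ± 3.16 CPM without Dox and 18.7 ± 1.47 CPM with Dox. It was not called (log2 fold change 0.18, adjusted p = 0.561, edgeR).

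The genes most like YAP1 and CTGF over the 6 libraries were found by the root mean square difference in log2(CPM + 1). Each gene was centred on its own mean, and 7651 genes with a mean of at least 20 CPM were compared. For YAP1 they were MAF1 (0.031), ANAPC16 (0.040) and TMEM205 (0.043), against a median of 0.245 over these genes. For CTGF they were UBE2T (0.167), RCC1 (0.167) and TSPAN13 (0.168), against a median of 0.567. UBE2T, RCC1 and TSPAN13 had log2 fold changes of -0.59, -0.91 and -0.92. Since the genes were chosen over both conditions, small differences and like fold changes follow from the choice.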

How the data were processed

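RNA of 6 libraries was profiled by QuantSeq 3ʹ mRNA sequencing. The paper names the REV kit and the labels the FWD kit. The authors demultiplexed reads with CASAVA 1.8.2 and mapped them to hg38 with STAR. The submitters' processing notes also name FastQC, HTSeq and edgeR, and the annotation and strand setting are not given in the sources used here. The authors deposited 1 table of raw counts by gene symbol. They also deposited a file per library of normalized signal values, made by a method not given in the sources used here. Of 27475 rows, 5 name no gene and were left out; reads on no gene were 32.5% to 39.5% of the reads listed and ambiguous reads 3.05% to 3.37%. For the normalized values, 27 rows with other names were left out.

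Counts were tested with edgeR 4.0.16 (filterByExpr, TMM, quasi-likelihood test, no covariate, Benjamini-Hochberg over 12233 genes) in R 4.3.3. Standard errors are the log2 fold change divided by the root of F. Alternatives were DESeq2 1.42.0, limma 3.58.1 on log2(value + 1) of the normalized values, other scalings and filters, a fit with a replicate block, and fits without 1 library. The test was also run on simulated counts with far fewer genes changed than were called here. That run does not show its error rate in these data. All members were named, and from the other lists up to 4 called genes per direction, with paralogs. TGFB2, CRIM1, DOCK5, FRMD6, COL1A1, the VGLL genes and the marker genes were named after their values were seen. The members and lists were chosen with earlier results of these data known. Coordinates are from GENCODE 44 on hg38, with 2 of 10 symbols matched through RefSeq synonyms. Depth limits low genes: 3 counts equal 0.394 to 0.930 CPM, and reads carry no molecular identifiers, so this covers counting error only.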

Additional observations from a re-analysis of the deposited data

How the results depend on the processing

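CYR61 and AJUBA kept their calls and direction under all 14 alternatives and CTGF under 12, as given above. With scaling by library totals alone, genes called higher went from 1451 to 2179, members called higher from 2 to 4 (LATS2 and AMOTL2 added), the Hippo kinase list from 2 to 5 higher and the junction and LIM list from 3 to 5 higher; YAP1 (0.022) and LATS1 (0.073) changed sign, as LATS1 did with upper-quartile normalization (0.0075). The Hippo kinase list had 1 higher with DESeq2 and with limma on the normalized values. The immediate-early list had 1 higher with limma, and lower calls of 2 without a filter, 0 with at least 10 counts in every library, 0 with DESeq2, 0 with limma and 3 with the replicate block, against 1. With 1 library left out, genes called higher were 953 (without Control replicate 1) to 1459, members called lower 0 to 1, the Hippo kinase list 0 to 3 higher, the junction and LIM list 2 to 5 higher, the factor list 0 to 1 lower, the CCN family 0 to 1 lower, and the immediate-early list 1 to 2 higher and 0 to 2 lower. WWTR1 (-0.16 to 0.15) turned to -0.16 and -0.074 without Control or OE replicate 2, LATS1 (-0.23 to 0.071) to 0.071, 0.016 and 0.015 without Control replicate 1 or 3 or OE replicate 3, and NOV (-0.054 to 0.50) to -0.054 without Control replicate 3. Unless stated, the cause was not tested.

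The labels do not say that same-numbered libraries form pairs, and the values did not settle it. Across 12233 genes, deviations from the condition means correlated between same-numbered libraries with r of -0.011, 0.245 and 0.086, and only number 2 correlated best with its own. With the replicate block, 3537 genes were called against 3125; CYR61 was at 2.04, CTGF at -0.84 and AJUBA at 1.71, AMOTL2 (0.59, adjusted p = 0.0486, edgeR) and TEAD2 (-0.38, adjusted p = 0.0261, edgeR) were called, so the factor list had 1 lower, and members called numbered 4.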
